A study of Mus musculus with 12 samples.

Results

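The replication-dependent histone genes of the mouse are the multicopy genes of the Hist1, Hist2, Hist3 and Hist4 clusters that supply histones during DNA synthesis. They were taken here as every row whose name begins with Hist1h, Hist2h, Hist3h or Hist4h, which gave 68 of 22552 rows in each of the 3 stage tables and 51 of 16394 rows in the Tet1 knockout table. The 68 rows are 6 H1, 18 H2A, 19 H2B, 12 H3 and 13 H4 genes, and the 51 rows are 5 H1, 16 H2A, 15 H2B, 12 H3 and 3 H4 genes. The cells were primordial germ cells of C57BL/6 mouse embryos, which later form eggs or sperm, and their messenger RNA had been sequenced. Cells with the genotype Tet1 -/- (Tet1-KO, 2 libraries, E13.5) lack an enzyme that oxidises 5-methylcytosine, and they were set against wild-type E13.5 cells labelled WT, with no sex given (3 libraries). The other libraries were all wild type and came from embryonic day 9.5 (E9.5, 2 libraries), E11.5 (2 libraries) and E13.5 with the label E13.5m (3 libraries). Another stage column is headed E13.5f, a name that the design text of the series gives to a triplicate and that no sample title carries, and it is used as the tables name it.

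Each library of the knockout comparison started from 500 to 2000 cells, and each library of the stage series from 400 to 5000. Amplification with a kit for small inputs gave 2 to 70 ng of cDNA. Every level below is 1 FPKM value (fragments scaled to row length and to the mapped total) that the authors pooled over the libraries of a group, so no level has a spread between libraries. The error beside a log2 ratio (SE, standard error) is the one that the Cuffdiff test of the authors implies. A gene is called here when its q-value or FDR, adjusted by the authors over all tested rows, is at most 0.05. Whether the libraries of 1 group stem from different embryos is not stated, and p-values then hold only the spread among the libraries made, possibly a technical one. Stage levels are given on the scale of the E13.5f table, to which the other stage tables were brought with constant factors of 0.870 and 0.976.

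As background, H2A, H2B, H3 and H4 form the core of the nucleosome and H1 binds the linker DNA between nucleosomes. Dividing cells switch the cluster genes on in S phase, when new DNA has to be packaged. Their messages end in a conserved stem loop bound by the protein SLBP in place of a poly(A) tail, and a minority of cluster genes can also give polyadenylated transcripts. A library kit primed on poly(A) therefore reads these genes only in part. In bulk samples, fewer cells with a transcript and less of it per cell cannot be told apart.

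The stem loop is the feature that sets these messages apart, and it is shown for 1 gene of each class and for Hist2h3c1, which is described below. The 16 bases of the loop and its stem are in capitals, with 5 bases on each side, copied from the GENCODE vM21 transcripts (build GRCm38).
Hist1h1c: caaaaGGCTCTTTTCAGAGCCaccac
Hist1h2ao: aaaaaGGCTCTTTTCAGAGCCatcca
Hist1h2bg: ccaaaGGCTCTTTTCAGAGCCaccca
Hist1h3e: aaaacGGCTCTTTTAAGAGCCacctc
Hist1h4d: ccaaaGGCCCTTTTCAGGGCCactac
Hist2h3c1: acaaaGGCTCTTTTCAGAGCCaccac
The pattern of the loop, GGNNCT followed by NNTN and then AGNNCC, was found after the reading frame in 46 of the 68 genes. All 12 H4 matches have a stem that differs from the stem of the other classes, most often as in Hist1h4d. In 24 of the 46 genes more than 60 bases of the annotated transcript follow the loop. Of the 22 genes with no match, 13 have models shorter than 420 bases. Hist1h2bc had no match in its 1156-base model of 2 exons.

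The H2A and H2B genes lie mostly as divergent pairs with a common start region, which is why 1 such region is printed. In GRCm38 the starts of 13 H2A and H2B pairs lie 173 to 306 bases apart (median 251). The 250 bases before the start of Hist1h2ac span the stretch between it and Hist1h2bc, and the matching stretch before Hist1h4d is given as a contrast, both from RefSeq (GRCm38.p6). The capitals mark CCAAT boxes, the sequence TATAAA of a TATA box and the octamer ATTTGCAT, each on either strand.
Hist1h2ac, chr13:23683960-23684209, minus strand: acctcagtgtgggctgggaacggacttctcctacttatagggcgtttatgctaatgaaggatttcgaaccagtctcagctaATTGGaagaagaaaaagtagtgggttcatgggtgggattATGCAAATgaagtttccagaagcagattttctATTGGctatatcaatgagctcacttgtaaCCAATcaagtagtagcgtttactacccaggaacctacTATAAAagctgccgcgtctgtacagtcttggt
Hist1h4d, chr13:23581318-23581567, plus strand: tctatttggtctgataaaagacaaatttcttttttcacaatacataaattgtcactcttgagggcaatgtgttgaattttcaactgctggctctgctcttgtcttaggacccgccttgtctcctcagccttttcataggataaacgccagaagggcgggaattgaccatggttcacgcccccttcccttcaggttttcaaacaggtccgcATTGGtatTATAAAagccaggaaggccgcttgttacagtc
The Hist1h2ac stretch holds 3 CCAAT matches, 1 octamer and 1 TATAAA, and the Hist1h4d stretch holds 1 CCAAT and 1 TATAAA. RefSeq gave 63 windows of 300 bases (250 before and 50 after the start) for 62 of the 68 genes. CCAAT was in 85.7% of them, against 37.4% of all 32851 windows of the table, and every H1, H2A, H2B and H3 window held it, against 3 of 12 H4 windows. TATAAA was in 55.6% of the histone windows, against 13.6% of all windows. The octamer was in 22.2%, against 1.74%, in 7 of 18 H2A and 7 of 17 H2B windows and in no H1, H3 or H4 window. The H1 motif AAACACA was in 5 of 6 H1 windows, and in 14.3% of histone windows against 7.18% of all. The windows of paired genes overlap, and a match describes letters only.

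Levels were low for most members. H2A was the class of highest summed level, with 49.1% of the sum at E9.5, 61.5% at E11.5, 66.6% at E13.5m and 74.0% at E13.5f. Of the 68 genes, 17 reached 10 FPKM in at least 1 stage column, 36 peaked from 1 to under 10 FPKM and 15 stayed under 1 FPKM in all 4. The 17 are 12 of 18 H2A genes, 2 of 6 H1 genes and 1 gene in each of the H2B, H3 and H4 classes. Those 12 H2A genes spanned 5.21 to 46.3 FPKM at E9.5, 6.78 to 56.3 at E11.5, 4.76 to 60.4 at E13.5m and 10.5 to 104.8 at E13.5f. By contrast the 18 H2B genes other than Hist1h2bc had medians of only 2.91, 2.11, 0.835 and 1.14 FPKM in the same columns. Summed H2A levels exceeded summed H2B levels by a ratio of 2.40 at E9.5, 3.66 at E11.5, 11.7 at E13.5m and 15.2 at E13.5f. The core of a nucleosome holds equal numbers of H2A and H2B, but these ratios are of RNA and do not measure protein. They also rest on near-identical copies, among which reads have to be shared. H4 was 1 gene above all: Hist1h4d (chromosome 13, 23673471 to 23673782, build mm9) held 78.7%, 79.1%, 88.2% and 86.1% of the H4 sum, and the other 12 H4 genes stayed at or below 2.95 FPKM.

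**Figure D1:**
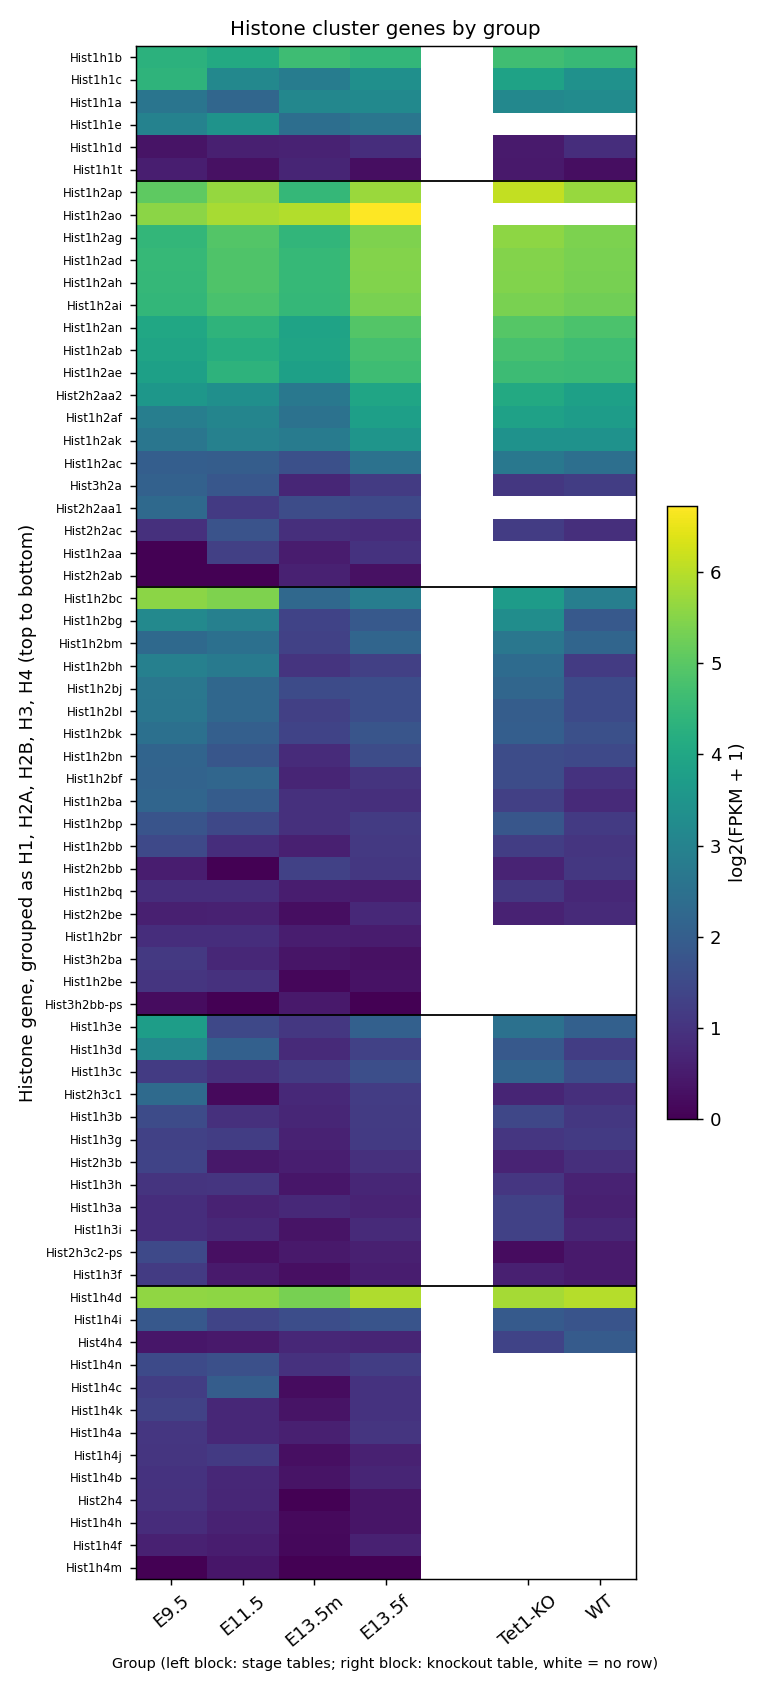
Level of each histone cluster gene as log2(FPKM + 1), 1 row per gene by class and 1 column per group (stage tables at left, Tet1-KO and WT at right, white where the knockout table has no row of that name). The bright block is the H2A class, while single bright rows mark Hist1h4d and, at E9.5 and E11.5, Hist1h2bc.

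Levels of near-identical genes are uncertain, because a read that matches several copies has to be shared among them. The counts below of such genes with a higher or lower value are thus not counts of separate observations. The coding sequences of 15 H2A genes of 393 bases had a median identity of 96.4% (lowest 77.6%), and those of Hist1h2ao and Hist1h2ap were identical. The median was 94.8% within H2B, 97.6% within H3 and 93.9% within H4. In the stage tables Hist1h2ao and Hist1h2ap are listed at 1 and the same position with different values, and Hist1h2bq and Hist1h2br share both values and length. In 31 of the 68 rows the row is only as long as the coding frame, with no untranslated part.

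Between E9.5 and E11.5 the H3 genes were lower in level, the H2A sum rose about as much as the table's median row, and 1 gene was called. The authors' deposited table called 1 of 64 tested histone genes, which was lower, where it called 5.63% of all tested rows (3.71% higher, 1.92% lower). The called gene was Hist2h3c1 (chromosome 3, 96050608 to 96052432, mm9), an H3 gene of the Hist2 cluster. It had 0.124 FPKM at E11.5 against 4.04 FPKM at E9.5, a log2 ratio of -5.02 ± 1.36 (SE) with q = 0.00825 in the authors' deposited table. It fell 32.5-fold, and the E11.5 value is close to 0. The authors' deposited table gave an unadjusted p under 0.05 for 2 of the 64 genes, both lower, where it did so for 19.8% of all tested rows (14.4% higher, 5.39% lower).

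The second of those was Hist1h1c, a linker histone gene that also gives polyadenylated messages. It had 7.80 FPKM at E11.5 and 19.8 FPKM at E9.5, a log2 ratio of -1.34 ± 0.63 (SE) with q = 0.207 in the authors' deposited table, so it was not called. Within H3, 11 of 12 genes had the lower value at E11.5 and the class summed to 11.5 FPKM at E11.5 against 36.1 FPKM at E9.5. Hist1h3e, the leading H3 gene, had 1.75 FPKM at E11.5 and 12.3 FPKM at E9.5 (log2 ratio -2.81 ± 1.52, SE), and Hist1h3d had 3.17 and 7.86 FPKM in the same order. Neither difference was called. Of all tested rows 67.0% had the higher value at E11.5 and 33.0% the lower. H2A genes had the higher value at E11.5 in 13 of 17 tested, with a class sum of 309 FPKM at E11.5 against 239 FPKM at E9.5. That class ratio, 0.37 on the log2 scale, is near the table's own median ratio of 0.32, and 0.047 remained above it. Over all 68 genes the sums were 502 FPKM at E11.5 and 488 FPKM at E9.5, a log2 ratio of 0.041 that turned to -0.28 relative to the table's median row. The median change of log2(FPKM + 1) was -0.20 over the histone genes, against 0.29 over all tested rows.

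Blood markers moved with this comparison: the 6 fixed markers summed to 25.1 FPKM at E11.5 and 1886 FPKM at E9.5, and all 5 that were tested were called lower in the authors' deposited table. The 4 endothelial markers summed to 9.10 FPKM at E11.5 and 0.123 FPKM at E9.5, nearly all of it from Esam, which was called higher in the authors' deposited table, while Kdr and Tie1 were at 0 in both columns. The 6 gonadal soma markers summed to 1.56 FPKM at E11.5 and were all at 0 at E9.5, and the 4 mesenchymal markers summed to 1.17 and 0.0891 FPKM in that order, with no call in either list. The part of these cells in the H3, H1 and H2A differences was not tested. All 10 germ-cell markers, among them Dazl, Ddx4, Pou5f1 and Dppa3, were above 0 in every column.

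From E11.5 to E13.5 the H2B class was lower, and 1 H2B gene carried the only call in both E13.5 tables. Hist1h2bc (chromosome 13, 23776068 to 23784349, mm9), a core histone H2B gene known to give polyadenylated messages too, had 46.4 FPKM at E9.5, 41.6 at E11.5, 3.84 at E13.5m and 6.20 at E13.5f. Both E13.5 values lie far under both earlier ones. At E13.5f against E11.5 the gene fell by 2.75 ± 0.72 on the log2 scale (SE), 6.71-fold, with q = 0.00349 in the authors' deposited table. At E13.5m against E11.5 it fell by 3.43 ± 0.95 on the log2 scale, 10.8-fold, with q = 0.0117 in the authors' deposited table, a call that is lost at a threshold of 0.01. Between E11.5 and E9.5 it did not pass (log2 ratio -0.16 ± 0.65, q = 0.926 in the authors' deposited table). Both E13.5 tests share the E11.5 libraries.

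The calls on histone genes were few beside those of all rows. At E13.5f, 1 of 64 tested histone genes was called, and it was lower, where the authors' deposited table called 12.0% of all tested rows (9.34% higher, 2.68% lower). At E13.5m it was 1 of 66, also lower, where the authors' deposited table called 4.88% of all tested rows (2.94% higher, 1.94% lower). An unadjusted p under 0.05 was given by the authors' deposited table for 3 of 64 genes at E13.5f (2 higher, 1 lower), where it did so for 26.5% of all tested rows (19.4% higher, 7.11% lower). At E13.5m it was 1 of 66 genes, lower, where the share was 17.2% of all tested rows (9.46% higher, 7.73% lower). The SE of histone genes was large: its median was 1.42 at E13.5f, against 0.55 over all rows, and 1.67 at E13.5m, against 0.58 over all rows.

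The other H2B genes were also lower in value, though none was called. At E13.5f 15 of 18 tested H2B genes, and at E13.5m 17 of 18, had a value below that of E11.5. The 18 genes besides Hist1h2bc summed to 16.0 FPKM at E13.5m and 23.5 FPKM at E13.5f, against 42.8 FPKM at E11.5. Hist1h2bc made up 19.4% of the H2B sum at E13.5m and 20.9% at E13.5f, against 49.3% at E11.5 and 46.5% at E9.5. Hist1h2bg, the next H2B gene at the early stages, had 1.55 FPKM at E13.5m and 2.69 FPKM at E13.5f, against 6.55 FPKM at E11.5 (log2 ratios of -2.08 ± 1.35 and -1.29 ± 1.03, SE). Hist1h2bm had 1.45 FPKM at E13.5m and 3.57 FPKM at E13.5f, against 4.55 FPKM at E11.5. Hist1h2be, for which 2 of 3 annotated transcripts have 2 exons, was listed at 0.0822 FPKM at E13.5m and 0.260 FPKM at E13.5f, against 0.927 FPKM at E11.5. It shares its position in the tables with Hist1h1e, so its values are uncertain.

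Hist1h2bc is also 1 of 13 cluster genes listed here as known to give polyadenylated messages, of which 12 are in the stage tables. The list was drawn from general knowledge of mouse or human genes and is incomplete, and the sums below depend on it. Hist1h2bc is the only listed gene called in the authors' deposited tables. The 12 genes summed to 95.7 FPKM at E9.5, 71.5 at E11.5, 23.1 at E13.5m and 42.3 at E13.5f. Without Hist1h2bc, a sum chosen after seeing the data, the other 11 came to 49.3 FPKM at E9.5, 29.9 at E11.5, 19.3 at E13.5m and 36.1 at E13.5f. The order of E13.5f and E11.5 thus turns round when Hist1h2bc is left out, while E13.5m stays under E11.5. The sum of the 4 fixed endothelial markers moved in the same direction. It was 0.732 FPKM at E13.5m and 1.04 FPKM at E13.5f, against 9.10 FPKM at E11.5, which was nearly all from Esam. Only 1 of these markers was tested in each E13.5 table, and it was called lower. At E11.5 2 of them were at 0, and in each E13.5 column 1 was, so not every marker fell. The 6 gonadal soma markers summed to 6.71 FPKM at E13.5m and 1.42 FPKM at E13.5f, against 1.56 FPKM at E11.5, with 1 called higher at E13.5m. The 6 blood markers summed to 37.9 FPKM at E13.5m and 3.18 FPKM at E13.5f, against 25.1 FPKM at E11.5, with 1 called lower at E13.5f. The 4 mesenchymal markers summed to 0.439 FPKM at E13.5m and 0.393 FPKM at E13.5f, against 1.17 FPKM at E11.5. Only 1 of them was tested in each E13.5 table, and it was not called. The part of these cells in the H2B values was not tested.

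**Figure D2:**
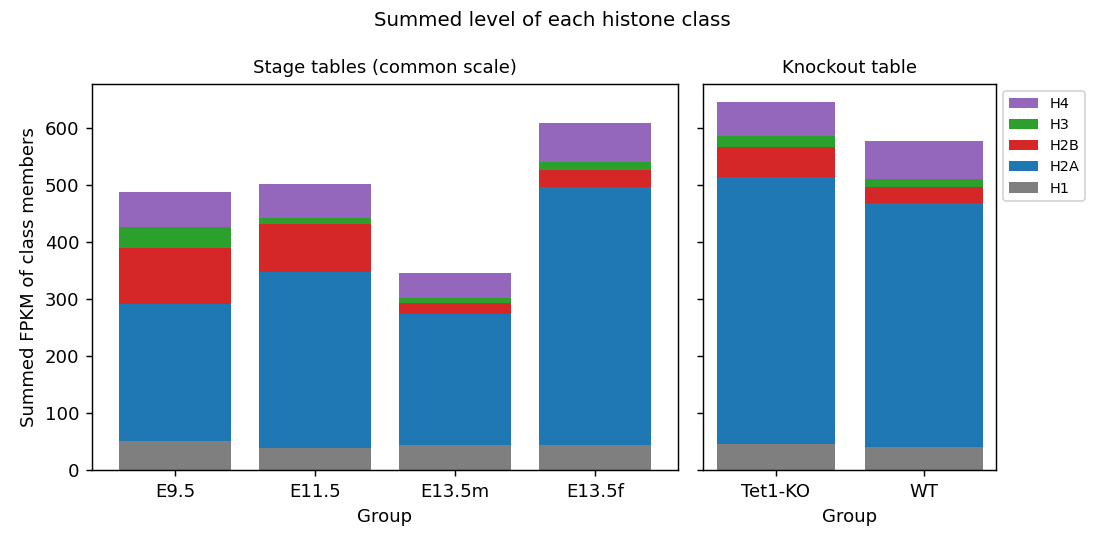
Summed FPKM of each histone class by group, stacked from H1 at the bottom to H4 at the top; the left panel has the stage columns on a common scale and the right panel the knockout table. The H2B segment is 19.8 FPKM at E13.5m and 29.7 FPKM at E13.5f, against 84.4 FPKM at E11.5, while H2A is the tallest segment in every bar.

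H2A values lay above those of E11.5 at E13.5f and below them at E13.5m, without a call in either. At E13.5f 14 of 17 tested H2A genes had a higher value than at E11.5, and the class summed to 451 FPKM at E13.5f against 309 FPKM at E11.5. Of all tested rows 62.2% had the higher value at E13.5f. The log2 ratio of the H2A sums was 0.55, and 0.36 relative to the table's median row, with 13 genes above that row and 4 below it. At E13.5m 15 of 18 had a lower value, as did 47.0% of all tested rows, and the sums were 231 FPKM at E13.5m and 309 FPKM at E11.5. Hist1h2ao, the most abundant H2A gene, had 46.3 FPKM at E9.5, 56.3 at E11.5, 60.4 at E13.5m and 104.8 at E13.5f. The last value was the highest, with a log2 ratio of 0.90 ± 0.43 (SE) to E11.5 and q = 0.161 in the authors' deposited table, so it was not called. Hist1h2ap, its coding twin, had 32.3, 49.4, 21.2 and 51.5 FPKM over the same columns. Hist1h2ag had 21.1, 29.5, 20.5 and 42.2 FPKM.

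H1, H3 and H4 genes held no call at E13.5. Hist1h1b, a linker histone gene of dividing cells, had 18.8 FPKM at E9.5, 16.0 at E11.5, 24.1 at E13.5m and 21.0 at E13.5f, a narrow range beside its SE of 0.67 to 0.80 on the log2 scale. Hist1h1a, another such linker gene, had 5.09, 3.65, 7.65 and 8.17 FPKM, and Hist1h1c had 19.8, 7.80, 6.13 and 9.23 FPKM in the same order. Of these linker genes only Hist1h1c was highest at E9.5. H3 sums stayed low after E9.5, at 11.5 FPKM at E11.5, 7.39 at E13.5m and 14.3 at E13.5f. Hist2h3c1 was at 0.712 FPKM at E13.5m and 1.296 FPKM at E13.5f, against 0.124 FPKM at E11.5. Its log2 ratio at E13.5f was 3.38 ± 1.32 (SE), with p = 0.0104 and q = 0.0718 in the authors' deposited table, so it was not called. Hist1h3c had 1.26 FPKM at E9.5, 0.892 at E11.5, 1.25 at E13.5m and 2.04 at E13.5f. Hist1h4d had 48.1, 46.8, 39.7 and 59.9 FPKM and Hist1h4i, the next H4 gene over all columns, had 2.61, 1.58, 2.04 and 2.36 FPKM. The H4 sum was 45.0 FPKM at E13.5m and 69.5 FPKM at E13.5f, against 59.1 FPKM at E11.5.

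**Figure D3:**
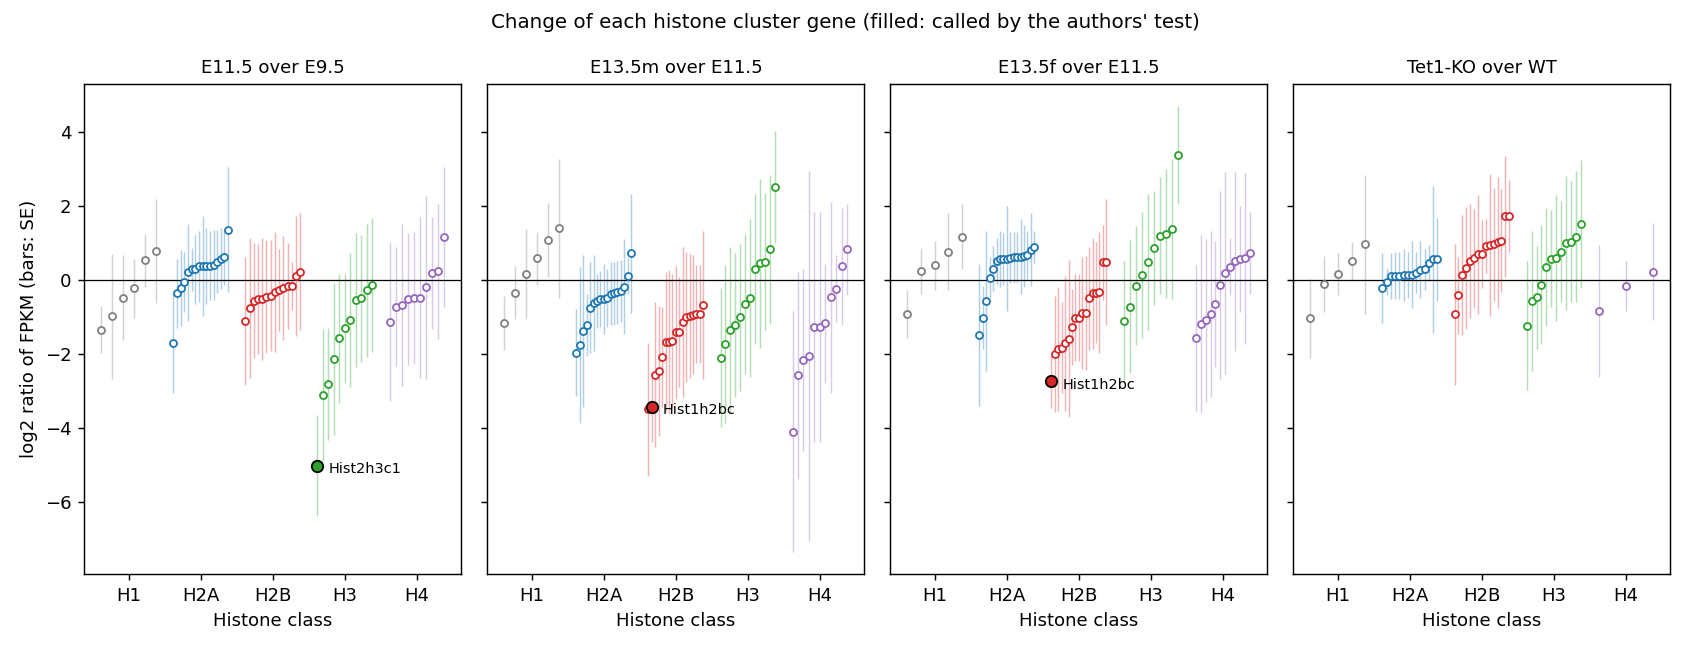
Log2 ratio with SE, by class, in the 4 comparisons, for the histone genes that have an SE. These are 57 at E11.5 over E9.5, 63 at E13.5m, 61 at E13.5f and 49 in Tet1-KO over WT. Genes without an SE are left out, among them Hist1h4d in the first panel. Filled points are the called genes and open points were not called. Hist2h3c1 is the filled point at -5.02 in the first panel, and Hist1h2bc is the filled point at -3.43 for E13.5m and at -2.75 for E13.5f, below the H2A points.

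Summed over all 68 genes, the level was 346 FPKM at E13.5m and 610 FPKM at E13.5f, against 502 FPKM at E11.5. The ratio to E11.5 was -0.53 on the log2 scale at E13.5m and 0.28 at E13.5f, of which 0.090 remained relative to the median row of the E13.5f table, itself shifted by 0.19. The median change of log2(FPKM + 1) was -0.40 at E13.5m, against 0.051 over all tested rows, and 0.058 at E13.5f, against 0.22 over all tested rows. At E13.5f the median is therefore 0.058 as it stands and -0.16 relative to all rows.

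E13.5m and E13.5f were set against each other through the difference of their log2 ratios to E11.5, a normal two-sided test that treats the shared E11.5 libraries as separate. Of 60 histone genes with both errors, 52 had the lower and 8 the higher value at E13.5m. The same split over all rows was not computed, so these counts have no share beside them. The median difference was -0.90 on the log2 scale, against -0.24 over all 10677 rows. No histone gene passed in this normal test with Benjamini-Hochberg adjustment, and 0 had an unadjusted p under 0.05 in it. Of all rows 0.169% passed (0.122% higher and 0.0468% lower at E13.5m), and their share under the unadjusted p was not computed. Counting the shared E11.5 libraries as separate makes the SE too large and the test conservative. The lack of a pass therefore does not show that the levels were alike. For Hist1h2bc the difference was -0.69 ± 1.19 (SE), and for Hist1h2ao it was -0.80 ± 0.66 (SE), and neither passed.

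The divergent pairs show how far the ratios of 2 genes with 1 start region differed. At E13.5f, 10 of 12 pairs with both ratios had a higher H2A value and a lower H2B value than at E11.5. The median log2 ratio was 0.58 for the H2A genes of the pairs and -0.96 for their H2B partners. In the pair printed above, Hist1h2ac had 4.74 FPKM at E13.5f against 2.96 FPKM at E11.5 (log2 ratio 0.68 ± 0.65, SE), while Hist1h2bc had 6.20 FPKM at E13.5f against 41.6 FPKM at E11.5. At E13.5m both genes were lower in 11 of 12 pairs, with medians of -0.50 for H2A and -1.41 for H2B. Between E11.5 and E9.5 the H2A ratio was above the H2B ratio in 11 of 11 pairs. Apart from Hist1h2bc no gene of a pair was called in the authors' deposited table, and H2A values rest on near-identical copies. The pairs of Hist1h2ao with Hist1h2bq and of Hist1h2ap with Hist1h2br are not separate observations in the stage tables. Their H2B rows hold the same values, and their H2A rows share 1 listed position.

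**Figure D4:**
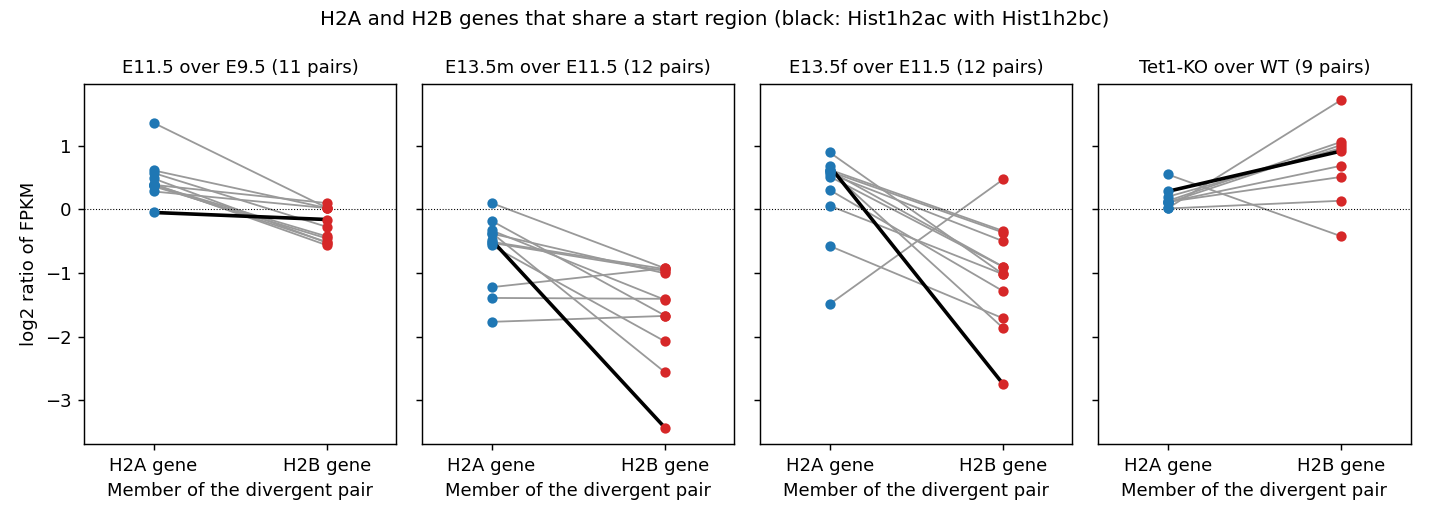
Log2 ratios of the H2A gene (left) and the H2B gene (right) of each divergent pair, joined by a line, in the 4 comparisons; the black line is Hist1h2ac with Hist1h2bc. Most lines slope down to H2B in the stage comparisons and up to H2B in Tet1-KO over WT.

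In Tet1-KO cells no histone gene was called, while most histone values lay above WT. The knockout itself read as labelled: Tet1 had 0.218 FPKM in Tet1-KO cells and 6.36 FPKM in WT cells, a log2 ratio of -4.87 ± 0.67 (SE) with FDR = 1.55e-10 in the authors' deposited table. Cuffdiff called 0 of 51 histone genes, where the authors' deposited table called 6.16% of all rows (0.677% higher, 5.48% lower). It gave 0 of the 51 an unadjusted p under 0.05, where 20.0% of all rows had one (2.58% higher, 17.4% lower). The value was higher in Tet1-KO for 39 of the 51 histone genes and lower for 12, against 4310 higher and 11089 lower over all rows. The median change of log2(FPKM + 1) was 0.19 over the histone genes and -0.21 over all rows. The 10 germ-cell markers summed to 2905 FPKM in Tet1-KO and 4064 FPKM in WT cells, with 1 called higher and 1 lower in the authors' deposited table. The gonadal soma markers were higher in value in Tet1-KO, like most histone genes: the 4 listed ones, Wt1, Gata4, Nr5a1 and Foxl2, summed to 3.90 FPKM in Tet1-KO and 1.27 FPKM in WT cells, with a median change of 0.64 in log2(FPKM + 1) and no call. The 2 listed endothelial markers summed to 0.861 FPKM in Tet1-KO and 0.951 FPKM in WT, and the 1 listed blood marker was at 0 in Tet1-KO and at 1.31 FPKM in WT. The 2 listed mesenchymal markers summed to 0.344 FPKM in Tet1-KO and 0.349 FPKM in WT, with 1 called lower. The part of these differences in the histone values was not tested.

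Of the 5 classes H2B had the largest ratio between the genotypes, and 13 of 15 genes had the higher value in Tet1-KO. The H2B sum was 51.3 FPKM in Tet1-KO and 28.0 FPKM in WT cells, a log2 ratio of 0.88, or 1.25 relative to the table's median row, which was shifted by -0.38. On that centred scale H3 stood at 0.96, H1 at 0.56, H2A at 0.51 and H4 at 0.20. Hist1h2bg had 8.91 FPKM in Tet1-KO and 2.71 FPKM in WT cells (log2 ratio 1.72 ± 0.98, SE, FDR = 0.289 in the authors' deposited table), which is the smallest FDR of the histone genes. Hist1h2bc had 12.0 FPKM in Tet1-KO and 6.33 FPKM in WT cells (log2 ratio 0.92 ± 0.73, SE, FDR = 0.454 in the authors' deposited table). Its share of the H2B sum was 23.3% in Tet1-KO and 22.6% in WT. Hist1h2bm had 5.34 FPKM in Tet1-KO and 3.57 FPKM in WT.

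H2A summed to 468 FPKM in Tet1-KO and 428 FPKM in WT over 16 rows, a log2 ratio of 0.13 as it stands and 0.51 relative to the table's median row, above which all 16 lay. The joined row of Hist1h2ao and Hist1h2ap had 97.3 FPKM in Tet1-KO and 102.1 FPKM in WT (log2 ratio -0.069 ± 0.35, SE). The ratio of summed H2A to summed H2B was 9.13 in Tet1-KO and 15.3 in WT. Both genes were higher in 8 of 9 pairs, and the H2A ratio was above the H2B ratio in 1 of 9. H1 summed to 46.6 FPKM in Tet1-KO and 41.0 FPKM in WT, with Hist1h1b at 24.4 FPKM in Tet1-KO and 21.9 FPKM in WT and Hist1h1c at 13.6 and 9.54 FPKM in that order. H3 summed to 19.5 FPKM in Tet1-KO and 13.1 FPKM in WT, with Hist1h3e at 4.70 and 3.15 FPKM and Hist1h3c at 3.42 and 2.01 FPKM in that order. The 3 H4 rows summed to 59.7 FPKM in Tet1-KO and 67.5 FPKM in WT, a log2 ratio of -0.18 that turned to 0.20 relative to the table's median row. Hist1h4d had 55.5 FPKM in Tet1-KO and 62.4 FPKM in WT.

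The values of the WT column lay near those of the E13.5f column of the stage tables. No sample title carries E13.5f and the WT libraries have no sex in their labels, so whether both columns hold the same 3 libraries is not given, and their nearness is no comparison of separate cells. For 36 histone genes above 1 FPKM the ratio of WT to E13.5f was 0.676 to 1.05, with a median of 0.950. Gene models differ between the tables for a few rows: the Hist4h4 row is 312 bases in the knockout table and 2879 bases in the stage tables, with 2.82 FPKM in WT and 0.635 FPKM at E13.5f. Hist2h3c1 has a row of 546 bases in the knockout table, with 0.633 FPKM in Tet1-KO and 0.876 FPKM in WT.

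The 3 testis histone genes, whose products replace canonical histones in male germ cells, stayed low and were not called where they were tested. Hist1h2aa has no row in the knockout table, and Hist1h1t was not tested at E13.5f. Hist1h1t, the testis linker histone, was listed at 0.476 FPKM at E9.5, 0.241 at E11.5, 0.630 at E13.5m and 0.182 at E13.5f. Hist1h2aa, a testis H2A, had 0, 1.44, 0.423 and 0.966 FPKM in the same columns. Hist1h2ba, the testis H2B gene and partner of Hist1h2aa in a divergent pair, had 3.61, 2.86, 0.897 and 0.874 FPKM. Its log2 ratio to E11.5 was -1.67 ± 1.88 at E13.5m and -1.71 ± 1.82 at E13.5f (SE), within the error. Hist1h2ba had 1.44 FPKM in Tet1-KO and 0.742 FPKM in WT.

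On the smaller clusters the levels were low, apart from Hist2h2aa2. This H2A gene had 10.8 FPKM at E9.5, 9.23 at E11.5, 5.48 at E13.5m and 14.5 at E13.5f, and its coding twin Hist2h2aa1 at the same listed position had 3.92, 1.199, 1.98 and 1.78 FPKM. Hist3h2a had 3.28, 2.54, 0.652 and 1.25 FPKM, and Hist2h2ac had 0.895, 2.30, 0.876 and 0.819 FPKM. Hist2h2bb had 0.446 FPKM at E9.5, was listed at 0 at E11.5, and had 1.47 FPKM at E13.5m and 1.11 at E13.5f, and Hist3h2ba had 1.15, 0.680, 0.308 and 0.225 FPKM. Hist2h3b, an H3 gene near Hist2h3c1, had 1.56, 0.355, 0.484 and 0.921 FPKM. Hist2h3c2-ps, a pseudogene by its name only, had 1.80, 0.209, 0.370 and 0.496 FPKM. All 3 H3 rows of the Hist2 cluster thus had their highest value at E9.5 and their lowest at E11.5, with a call for Hist2h3c1 alone.

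Genes that make, process and deposit histone products ranged from 0.785 FPKM (Lsm11) to 1328 FPKM (Slbp) over the stage columns. Of a list of 43 such genes, 40 were listed, and 34 of them reached 10 FPKM in at least 1 stage column. The authors' deposited tables called 0 of 38 tested genes at E11.5 against E9.5, where they called 5.63% of all tested rows. They called 1 of 33 (higher, 3.03%) at E13.5f against E11.5, beside 12.0% of all tested rows, and 1 of 33 (lower, 3.03%) at E13.5m against E11.5, beside 4.88%. In Tet1-KO against WT they called 5 of 40 (12.5%), all lower, beside 6.16% of all rows and 5.48% lower. They gave an unadjusted p under 0.05 for 2 of 38, 6 of 33, 4 of 33 and 16 of 40 in that order. The shares of all tested rows were 19.8%, 26.5%, 17.2% and 20.0%. By direction they were 2 higher at E11.5, 4 higher and 2 lower at E13.5f, and 1 higher and 3 lower at E13.5m. All 16 in Tet1-KO were lower, as were 17.4% of all rows at that p. Slbp, which encodes the stem-loop binding protein, had 479 FPKM at E9.5, 851 at E11.5, 1033 at E13.5m and 1328 at E13.5f, and it was called in none of the authors' deposited tables. It had 724 FPKM in Tet1-KO and 1374 FPKM in WT cells (log2 ratio -0.92 ± 0.60, SE, FDR = 0.360 in the authors' deposited table). Rbbp4, a histone-binding subunit of chromatin assembly complexes, rose to 285 FPKM at E13.5f, against 115 FPKM at E11.5 (log2 ratio 1.31 ± 0.40, SE, q = 0.0163 in the authors' deposited table). Zfp473, which encodes a protein of histone message processing, fell to 1.68 FPKM at E13.5m, against 8.01 FPKM at E11.5 (log2 ratio -2.25 ± 0.71, SE, q = 0.0361 in the authors' deposited table).

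The 5 genes called lower in Tet1-KO were Asf1b, Chaf1b, Nap1l4, Cdk2 and Fip1l1. Asf1b, an H3 and H4 chaperone, had 151 FPKM in Tet1-KO and 411 FPKM in WT cells (log2 ratio -1.44 ± 0.34, SE, FDR = 0.00153 in the authors' deposited table). Chaf1b, a subunit of the chromatin assembly factor CAF-1, had 56.1 FPKM in Tet1-KO and 109.4 FPKM in WT. Nap1l4, a nucleosome assembly protein gene, had 244 and 517 FPKM in that order. Cdk2, the S-phase kinase, had 49.0 FPKM in Tet1-KO and 88.5 FPKM in WT, and Fip1l1, a polyadenylation factor gene, had 110.6 and 187.7 FPKM in that order. Of 18 further S-phase genes, all tested in each comparison, Cuffdiff called 0 in all 4 tables, beside 5.63% of all tested rows at E11.5, 12.0% at E13.5f, 4.88% at E13.5m and 6.16% in Tet1-KO. An unadjusted p under 0.05 was given for 1, 1, 2 and 5 of the 18 in that order, beside 19.8%, 26.5%, 17.2% and 20.0% of all tested rows. Their summed level was 3046 FPKM at E9.5, 3875 at E11.5, 3178 at E13.5m and 3858 at E13.5f. Relative to the table's median row, the log2 ratio of sums was 0.028 at E11.5 against E9.5. Against E11.5 it was -0.30 at E13.5m and -0.20 at E13.5f on that scale. The sum was 3034 FPKM in Tet1-KO and 4013 FPKM in WT, a log2 ratio of -0.40 beside the table's own shift of -0.38.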

How the data were processed

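The authors deposited 4 Cuffdiff tables with 1 pooled FPKM value per group, per the file headers. They also hold the p-value and q-value or FDR deposited by the authors, and the stage tables a test statistic, a score deposited by the authors. Per the submitters' processing notes, reads were handled with TopHat 1.3.1, Bowtie, and Cuffdiff and Cufflinks in version 1.0.3 (listed for the knockout comparison) and 1.2.1 (listed for the stage libraries), on build mm9. How reads that match several copies were shared is not given in the sources used here. Depth is unknown, and intervals from counts cannot be given.

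Title, age and genotype gave the groups. Rows were matched by name, and calls are the authors' at 0.05. The log2 ratio was computed from both FPKM values, and its SE as ratio over deposited statistic, or, in the knockout table, over the normal deviate of the p-value where that deviate was above 0.05. List medians used log2(FPKM + 1), a scale that understates low genes' changes. The test relative to the table median was tested on simulated data. Named were called genes, the 3 of highest summed FPKM in each class, 3 testis genes, genes of Hist2 to Hist4 above 1 FPKM, neighbours of Hist1h2ba (Hist1h2aa and Hist1h1a), and called pathway genes with Slbp. Others (Hist1h2be and Hist1h2ac) were chosen after their values were seen. The members and lists were chosen with earlier results of these data known. GENCODE vM21 and RefSeq GRCm38.p6 gave sequences and distances, never joined to mm9 coordinates. Tools were matplotlib 3.10.9, scipy 1.17.1, pandas 2.3.3, numpy 2.4.6 and Python 3.11.15.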

Additional observations from a re-analysis of the deposited data

How the results depend on the processing

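The alternative runs were adjustment computed again, a minimum of 1 FPKM, 1 row per symbol, centring and a threshold of 0.01. Only centring changes a log2 ratio, so the other runs could not turn the direction of Hist1h2bc or Hist2h3c1. When centred, Hist1h2bc stood at -2.94 at E13.5f and -3.45 at E13.5m. Hist2h3c1 stood at -5.34 at E11.5 against E9.5. Hist1h2bc at E13.5m had q from 0.00999 to 0.0117 over these runs, and at a threshold of 0.01 on the deposited q-value 0 histone genes were called there. Hist1h2bc at E13.5f had q from 0.00167 to 0.00349, and Hist2h3c1 at E11.5 from 0.00411 to 0.00825.

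The log2 ratio of summed levels depended on the scaling. At E11.5 against E9.5 it was 0.041, and turned to -0.28 relative to the table's median row and to -0.20 as the median change. At E13.5f against E11.5 it was 0.28, and 0.18 without the most abundant gene, 0.090 when centred, 0.058 as the median change and 0.39 without Hist1h2bc. At E13.5m against E11.5 it was -0.53, and -0.64, -0.40 and -0.43 without the most abundant gene, as the median change and without Hist1h2bc. For Tet1-KO over WT it was 0.16, and 0.54 when centred. For the 12 genes listed as giving polyadenylated messages the log2 ratio of sums at E13.5f against E11.5 was -0.76, and it turned to 0.27 without Hist1h2bc.

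The median change at E11.5 against E9.5 was -0.49 when centred on all tested rows. At E13.5f it was 0.24 with a minimum of 1 FPKM and turned to -0.16 when centred. At E13.5m it was -0.77 with a pseudocount of 0.1 and -0.58 with a minimum of 1 FPKM. For Tet1-KO over WT it was 0.41 when centred. Leaving out Hist1h2bc, or counting genes with identical values once, was chosen after seeing the data. No paired analysis was possible because each column holds 1 value pooled over libraries and carries no replicate number, and for that reason no library could be left out. What depth limits cannot be given from FPKM alone; SEs above 1 on the log2 scale limit most single genes.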
